A study of Mus musculus with 4 samples.

Results

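Glycolysis and hypoxia genes, 33 in all, were followed in mouse bone marrow-derived macrophages, primary cells grown from bone marrow. The set comprised glycolytic enzymes, glucose and lactate transporters and genes induced by low oxygen, and its members were taken by symbol from the 23284 gene symbols of the deposited tables. All 33 were found; Pkm is listed there as Pkm2. The galectin-1 group (2 libraries) held macrophages of wild-type mice that received lipopolysaccharide (LPS), a bacterial cell wall component, at 1 µg/ml for 1 h and then spent 24 h in culture with added recombinant galectin-1 of mouse sequence, a lectin that binds galactosides. The vehicle group (2 libraries) received the same LPS pulse and was cultured for 24 h with phosphate-buffered saline. LPS was thus common to both groups, no library without LPS was analysed here, and the sources used here give neither the galectin-1 dose nor the strain, sex and age of the mice. The series asked what character galectin-1 gives to macrophages, in the setting of its anti-inflammatory role in colitis.

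Glycolysis splits glucose into pyruvate in the cytosol, with a small gain of ATP and no need for oxygen. Macrophages stimulated with LPS are known to take up more glucose and to export more lactate. In the same cells hypoxia-inducible factor 1, whose alpha subunit is encoded by Hif1a, accumulates even at normal oxygen. It binds a short response element and induces many glycolytic genes together with genes of angiogenesis, mitophagy and collagen folding. Prolyl hydroxylases encoded by the Egln genes mark the alpha subunit for degradation when oxygen is present.

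The response element has the core letters ACGTG or GCGTG, and these letters were looked up in promoters because many members are known as its targets. Of the 33 members, 31 had an entry in the RefSeq promoter table of the GRCm38.p6 build, 300 bases around each gene start (250 before and 50 after). On either strand, 28 of the 31 (90.3%) held ACGTG or GCGTG in at least 1 listed promoter. The share was 68.7% of 6828 genes that were tested for expression and matched by symbol, and 46.7% of all 27025 genes of the table. Counted over promoters, it was 76.1% of 46 member promoters and 43.8% of all 32851 promoters of this length. Member promoters were also richer in G and C, with a median of 64.7% per gene against 60.7% in the tested genes and 52.8% in all genes. Both motifs hold a CG. The median number of CG pairs per promoter, averaged by gene, was 21.3 for members, 21 for the tested genes and 7 for all genes. The members without a match were Gpi1, Tpi1 and Eno2.

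The 250 bases before the start are shown for 4 members with a single listed promoter that ends at the edge of the annotated gene. Slc2a1 is shown as the glucose transporter gene, and Gpi1, Bnip3 and Egln1 as the members of lowest p within their roles. Capitals mark either motif as read on the printed strand or as its reverse complement. The windows lie at chr4:119108495-119108744 (plus strand) for Slc2a1, chr7:34230337-34230586 (minus) for Gpi1, chr7:138909507-138909756 (minus) for Bnip3 and chr8:124949255-124949504 (minus) for Egln1, all in GRCm38.p6.
Slc2a1: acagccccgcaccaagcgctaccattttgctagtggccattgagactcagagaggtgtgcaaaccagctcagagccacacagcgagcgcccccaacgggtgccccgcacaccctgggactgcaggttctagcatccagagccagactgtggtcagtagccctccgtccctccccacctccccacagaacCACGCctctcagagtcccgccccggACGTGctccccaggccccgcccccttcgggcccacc
Gpi1: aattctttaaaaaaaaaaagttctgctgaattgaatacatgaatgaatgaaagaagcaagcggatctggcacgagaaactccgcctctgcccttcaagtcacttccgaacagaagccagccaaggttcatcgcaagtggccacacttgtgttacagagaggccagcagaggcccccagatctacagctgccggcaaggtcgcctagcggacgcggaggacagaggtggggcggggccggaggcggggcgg
Bnip3: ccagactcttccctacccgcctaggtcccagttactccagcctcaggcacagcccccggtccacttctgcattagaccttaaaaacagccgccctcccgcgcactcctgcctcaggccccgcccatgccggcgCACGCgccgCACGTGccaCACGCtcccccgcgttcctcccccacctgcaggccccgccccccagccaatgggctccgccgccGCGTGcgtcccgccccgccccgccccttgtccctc
Egln1: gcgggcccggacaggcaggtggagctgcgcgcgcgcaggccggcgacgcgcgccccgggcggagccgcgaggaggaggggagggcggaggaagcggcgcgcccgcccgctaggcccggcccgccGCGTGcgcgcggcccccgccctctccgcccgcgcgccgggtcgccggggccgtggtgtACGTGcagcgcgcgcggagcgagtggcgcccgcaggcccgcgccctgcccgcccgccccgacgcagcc
Slc2a1 held 2 matches that begin 61 and 36 bases before its start. Bnip3 had 5 matches, of which 2 overlap on opposite strands in a palindrome. Egln1, with the opposite direction of difference, held 2 matches, and Gpi1 held none. A match describes the letters of the window and no more.

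The members spanned expression from 0.361 FPKM (Egln3 in vehicle replicate 2) to 667 FPKM (Aldoa in galectin-1 replicate 2), where FPKM is the number of fragments scaled to transcript length and sequencing depth. Averaged over the 4 libraries, 9 members lay at 100 FPKM or more, 12 from 10 to under 100, 10 from 1 to under 10 and 2 below 1 FPKM. The 9 most abundant were all glycolytic enzymes: Aldoa, Gapdh, Pkm, Ldha, Pgk1, Tpi1, Pgam1, Gpi1 and Eno1. The sum over 15 glycolytic enzymes was 3079.5 and 3194 FPKM in the galectin-1 libraries and 2935 and 3009 FPKM in the vehicle libraries, without overlap. As a share of the library's total FPKM the same sum was 0.552% and 0.575% with galectin-1 and 0.531% and 0.556% with vehicle, so the groups overlapped on that scale.

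**Figure D1:**
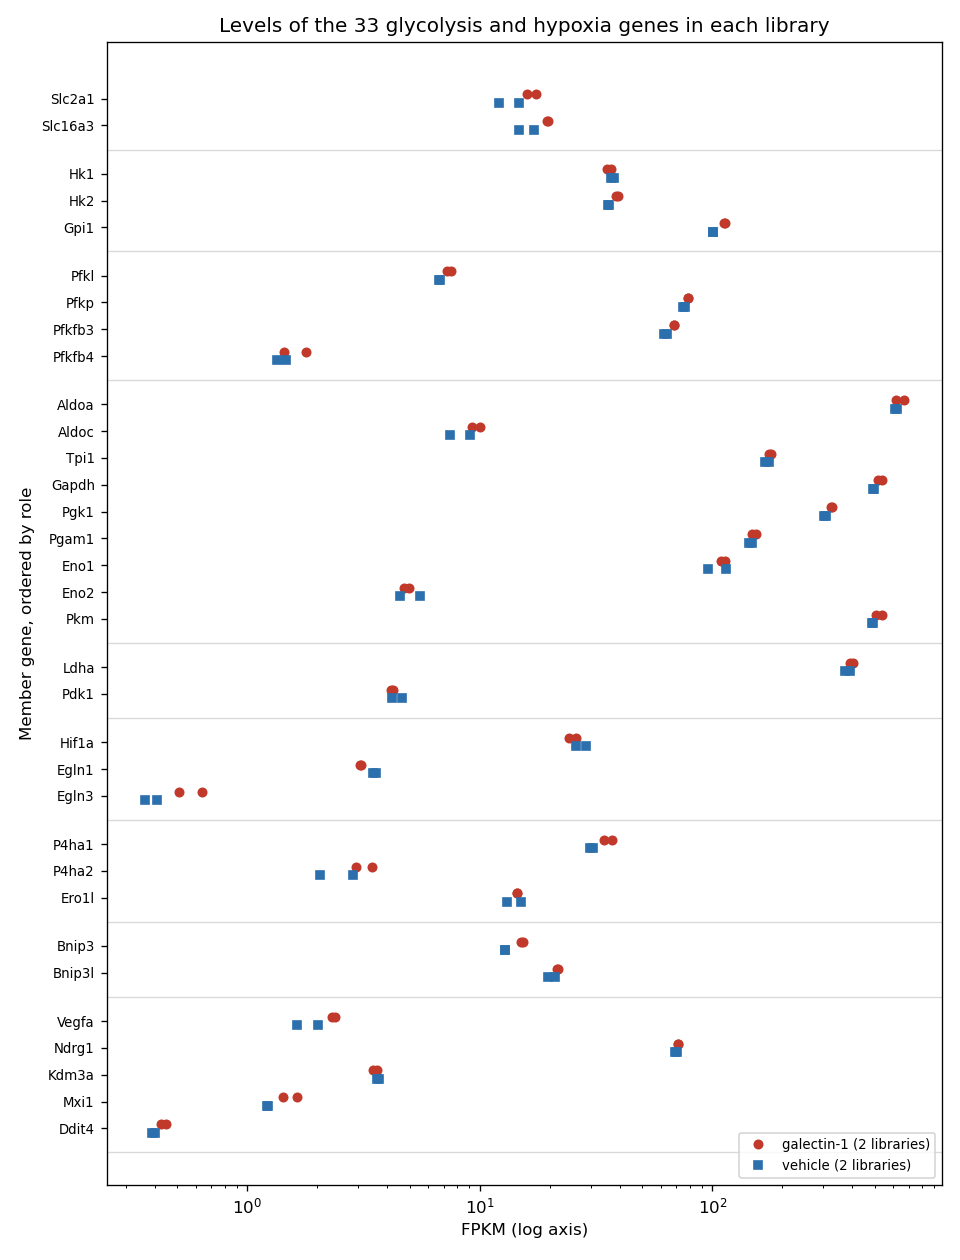
Level of each of the 33 members in FPKM on a log axis, ordered by role, with circles for the 2 galectin-1 libraries and squares for the 2 vehicle libraries. Levels run from 0.361 to 667 FPKM, and the distance between groups is small beside the distance between genes.

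In the comparison of galectin-1 with vehicle, most members were slightly higher with galectin-1, and none passed the test. Among members above 10 FPKM the transporters were furthest up: Slc2a1 averaged 16.7 ± 1.08 FPKM with galectin-1 and 13.4 ± 1.85 FPKM with vehicle (SD, n = 2 each), a ratio of 1.25, and Slc16a3 had a ratio of 1.23. The mitophagy receptor gene Bnip3 averaged 15.2 ± 0.159 FPKM with galectin-1 and 12.8 ± 0.0191 FPKM with vehicle (SD, n = 2 each), a ratio of 1.18, and the isomerase gene Gpi1 had a ratio of 1.12. Hif1a itself and Egln1, which encodes the main prolyl hydroxylase of its product, were on the lower side at 0.920 and 0.867 times the vehicle mean.

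The 31 members with a mean of at least 1 FPKM were tested together with all other such symbols, 9380 in all, by limma on log2(FPKM + 1). Egln3 and Ddit4 were below that minimum in both groups. At a Benjamini-Hochberg adjusted p under 0.05, 0 of the 31 members were called, where 1.19% of all tested symbols were called (57 or 0.608% higher and 55 or 0.586% lower with galectin-1). At an unadjusted p under 0.05 in limma, 10 members were higher and 0 lower, beside 12.2% and 11% of all tested symbols (23.2% in either direction). The galectin-1 libraries both lay above the vehicle libraries for 20 of the 31 members and both below for 3, beside 29.1% and 26.2% of all tested symbols. Differences were positive for 25 members and negative for 6, with a median of 0.09 on the log2 scale beside a median of 0.0024 over all tested symbols, 50.7% of which were positive. The members were chosen with results of these data known, so these counts describe the set and are no test of it.

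The size of the differences was modest. The median absolute difference was 0.10 for the members and 0.09 for all tested symbols. The median absolute difference between the replicates was 0.05 between the galectin-1 libraries and 0.04 between the vehicle libraries for the members, against 0.07 and 0.07 for all tested symbols. For 15 of the 31 members the group difference exceeded both replicate differences, as it did for 42.8% of all tested symbols. Leaving out 1 library moved the difference by over 1.5 times or turned its sign for 21 of the 31. All differences are on the log2(FPKM + 1) scale, which understates the change of low genes. With 2 libraries a group an exact permutation test cannot go below a 2-sided p of 0.333. The labels do not state separate cultures or animals for the 2 libraries of a group, so limma's p-values reflect the spread among these 4 samples and that spread may be technical.

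**Figure D2:**
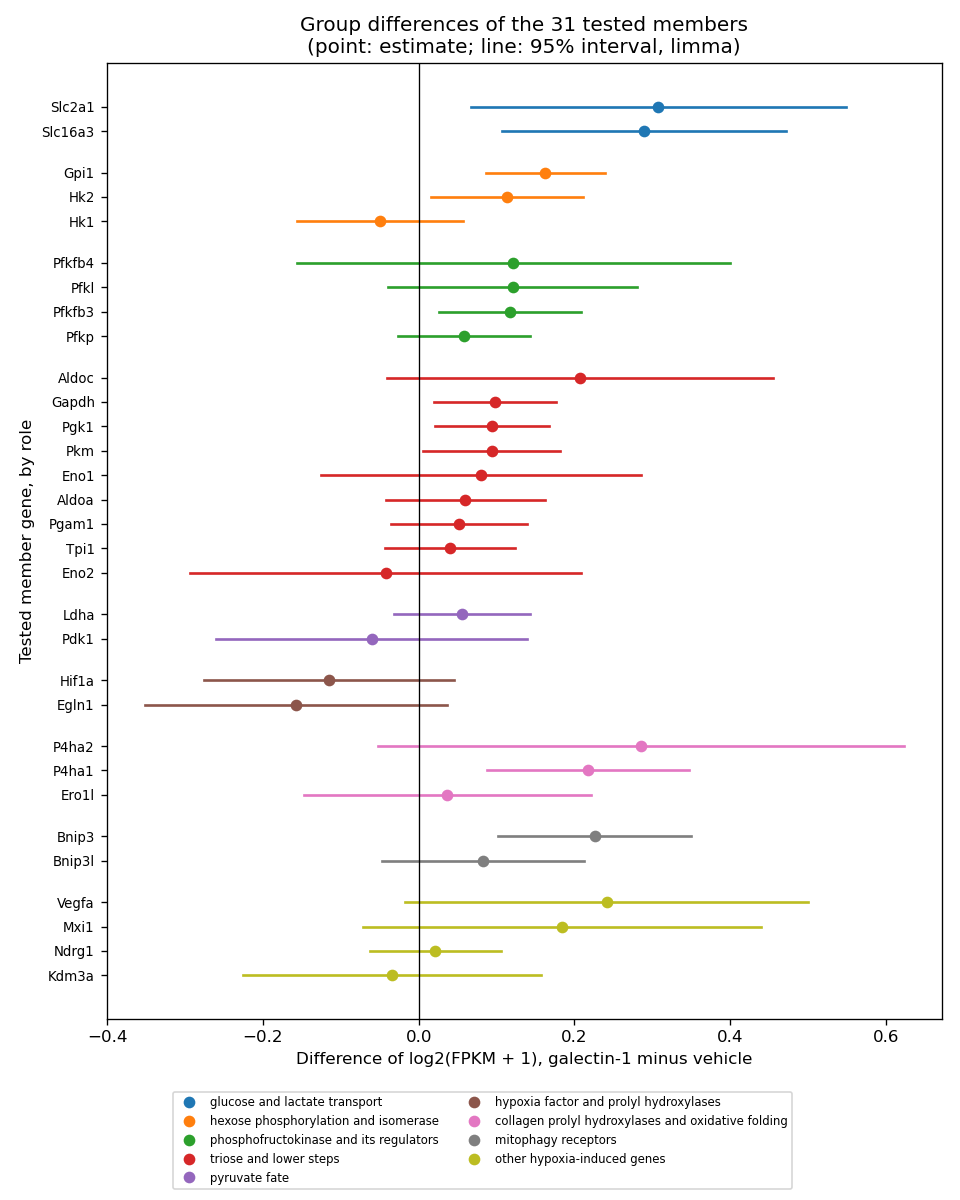
Difference of log2(FPKM + 1), galectin-1 minus vehicle, for the 31 tested members grouped by role, with points for estimates and lines for 95% intervals from limma. Of the 31, 25 points lie right of 0, and the 10 intervals that exclude 0 are all on that side.

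Both transporters were higher with galectin-1. Slc2a1, which encodes the ubiquitous glucose transporter GLUT1, had 15.98 and 17.5 FPKM with galectin-1 and 12.1 and 14.7 FPKM with vehicle. Its groups did not overlap, and the vehicle libraries differed from each other by nearly as much as the groups. The log2 difference was 0.31 (standard error 0.10, 95% interval 0.07 to 0.55, limma adjusted p = 0.146), and it was 0.18 without vehicle replicate 1. Slc16a3, which encodes the lactate exporter MCT4, had 19.7 and 19.5 FPKM with galectin-1 and 14.8 and 17.1 FPKM with vehicle. Here the galectin-1 libraries were close together and the vehicle libraries spread. The log2 difference was 0.29 (standard error 0.07, limma adjusted p = 0.107), or 0.19 without vehicle replicate 1.

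At the entry into the pathway the hexokinase members differed in sign, with only a small difference for Hk1. Hk2, the inducible hexokinase that phosphorylates glucose, had 38.4 and 39.2 FPKM with galectin-1 and 35.5 and 36.1 FPKM with vehicle (log2 difference 0.11, limma adjusted p = 0.168). Hk1, the housekeeping hexokinase, had 35.1 and 36.7 FPKM with galectin-1 and 37.6 and 36.8 FPKM with vehicle (-0.05, adjusted p = 0.527). Neither gene's groups overlapped, and the order of the pair differed: Hk2 was above Hk1 in both galectin-1 libraries and below it in both vehicle libraries.

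Gpi1, which converts glucose phosphate to fructose phosphate, had 112 and 113 FPKM with galectin-1 and 100.4 and 100.6 FPKM with vehicle. Replicates of either group lay within 1 FPKM of each other, and the groups did not overlap. The log2 difference was 0.16 (standard error 0.03, 95% interval 0.09 to 0.24), and its limma adjusted p of 0.0690 was the lowest among the members. In a fit without small RNA entries Gpi1 passed the threshold with an adjusted p of 0.0438. Over all alternatives its adjusted p ran from 0.0438 to 0.248.

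Phosphofructokinase, the main control point of the pathway, and the enzymes that set its activator gave positive differences. Pfkfb3, which makes the fructose bisphosphate that activates phosphofructokinase, had 68.1 and 68.3 FPKM with galectin-1 and 61.7 and 64.0 FPKM with vehicle (log2 difference 0.12, limma adjusted p = 0.144). The galectin-1 libraries were nearly equal, and the groups did not overlap. Pfkp, the platelet-type subunit, had 78.5 and 78.6 FPKM with galectin-1 and 74.4 and 76.4 FPKM with vehicle (0.06, adjusted p = 0.364). The liver-type subunit gene Pfkl stood lower, at 7.18 and 7.54 FPKM with galectin-1 and 6.64 and 6.74 FPKM with vehicle (0.12, adjusted p = 0.328). Pfkfb4, a relative of Pfkfb3 near the expression minimum, had 1.79 and 1.44 FPKM with galectin-1 and 1.46 and 1.34 FPKM with vehicle, and its groups overlapped.

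The triose steps held the most abundant members, and 8 of 9 tested differences were positive, each small. Gapdh, the dehydrogenase often used as a reference transcript, had 515 and 538 FPKM with galectin-1 and 493 and 490.3 FPKM with vehicle (log2 difference 0.10, limma adjusted p = 0.150). Pgk1, the first ATP-yielding kinase, had 328 and 323 FPKM with galectin-1 and 301 and 309 FPKM with vehicle (0.09, adjusted p = 0.144). Pkm, pyruvate kinase of muscle type, had 506 and 535 FPKM with galectin-1 and 484 and 491 FPKM with vehicle (0.09, adjusted p = 0.195). In each of these 3 genes both galectin-1 libraries were above both vehicle libraries.

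Aldoa, the aldolase and the most abundant member, had 618 and 667 FPKM with galectin-1 and 611 and 621 FPKM with vehicle (log2 difference 0.06, adjusted p = 0.430), or 0.0054 without galectin-1 replicate 2, and its groups overlapped. Its relative Aldoc had 10.0 and 9.27 FPKM with galectin-1 and 9.09 and 7.40 FPKM with vehicle (0.21, adjusted p = 0.284). The Aldoc difference was 0.34 when vehicle replicate 1 was left out and 0.075 when vehicle replicate 2 was. Tpi1, the triose phosphate isomerase, had 175.8 and 177.9 FPKM with galectin-1 and 168.4 and 175.5 FPKM with vehicle (0.04, limma adjusted p = 0.515). Pgam1, a mutase, had 147.9 and 153.7 FPKM with galectin-1 and 143.3 and 147.6 FPKM with vehicle (0.05, limma adjusted p = 0.432). For both genes the groups did not overlap, but the nearest libraries of the 2 groups were almost equal. Eno1, the main enolase, had 113 and 109 FPKM with galectin-1 and 95.7 and 115 FPKM with vehicle. The vehicle libraries lay on both sides of the galectin-1 libraries, and the log2 difference of 0.08 became -0.05 without vehicle replicate 1. A near-identical intronless copy on chromosome 18, Eno1b, is listed as Gm5506 at 0.359 and 0.478 FPKM with galectin-1 and 0.231 and 0.239 FPKM with vehicle, and the sources used here do not say how reads were divided between the copies. Eno2, the enolase of neurons, stood at 4.70 and 4.97 FPKM with galectin-1 and 4.51 and 5.54 FPKM with vehicle and showed no consistent order.

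Gapdh, Tpi1 and Eno2 are neighbours on chromosome 6, within 406 kb (chr6:124760053-125166467, GRCm38.p6). Their differences were 0.10, 0.04 and -0.04, the last with groups that overlapped and a sign that turned without vehicle replicate 2. The 33 members together lay on 15 chromosomes.

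At the fate of pyruvate the groups overlapped for both members. Ldha, which reduces pyruvate to lactate, had 389 and 401 FPKM with galectin-1 and 371 and 390 FPKM with vehicle (log2 difference 0.06, 95% interval -0.03 to 0.14, adjusted p = 0.400). Pdk1, the kinase that holds pyruvate dehydrogenase inactive, had 4.21 and 4.15 FPKM with galectin-1 and 4.64 and 4.17 FPKM with vehicle (-0.06, 95% interval -0.26 to 0.14, adjusted p = 0.697). Its sign turned to 0.0023 without vehicle replicate 1.

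The oxygen-sensing members gave negative differences where they were tested. Hif1a had 26.0 and 24.2 FPKM with galectin-1 and 25.9 and 28.6 FPKM with vehicle, with groups that overlapped (log2 difference -0.11, standard error 0.07, adjusted p = 0.351). Leaving out vehicle replicate 2 gave -0.045 for Hif1a, leaving out galectin-1 replicate 2 gave -0.064, and leaving out vehicle replicate 1 gave -0.18. Egln1 had 3.07 and 3.03 FPKM with galectin-1 and 3.58 and 3.47 FPKM with vehicle, without overlap (-0.16, 95% interval -0.35 to 0.04, adjusted p = 0.297). Egln3, the hypoxia-inducible prolyl hydroxylase, was below the minimum for testing at 0.509 and 0.635 FPKM with galectin-1 and 0.408 and 0.361 FPKM with vehicle. These values put Egln3 above and Egln1 below vehicle in both galectin-1 libraries. Hif1a mRNA need not follow the level of its protein, which is known to be set mainly by degradation.

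Among the enzymes of collagen folding, P4ha1 and P4ha2 encode alternative catalytic subunits of collagen prolyl hydroxylase. P4ha1 had 34.0 and 36.8 FPKM with galectin-1 and 29.9 and 30.8 FPKM with vehicle. The groups did not overlap, with a log2 difference of 0.22 (standard error 0.05, 95% interval 0.09 to 0.35, limma adjusted p = 0.1003). P4ha2 had 2.93 and 3.42 FPKM with galectin-1 and 2.85 and 2.04 FPKM with vehicle, a difference of 0.29 (adjusted p = 0.281). It moved to 0.45 without vehicle replicate 1, and leaving out vehicle replicate 2 gave 0.12. Ero1l, the oxidase that supplies disulfide bonds in the endoplasmic reticulum, had 14.4 and 14.5 FPKM with galectin-1 and 15.1 and 13.1 FPKM with vehicle (0.04), and its vehicle libraries enclosed the galectin-1 libraries.

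The mitophagy receptor genes, whose products sit on the outer mitochondrial membrane, were both higher. Bnip3 had 15.1 and 15.3 FPKM with galectin-1 and 12.8 and 12.8 FPKM with vehicle. Replicates were nearly equal in either group, and the log2 difference was 0.23 (standard error 0.05, 95% interval 0.10 to 0.35, limma adjusted p = 0.0887). Bnip3l had 21.6 and 21.4 FPKM with galectin-1 and 21.0 and 19.5 FPKM with vehicle (0.08, adjusted p = 0.396). The groups did not overlap for either gene.

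Of the remaining hypoxia-induced members, Vegfa, the angiogenic growth factor, had 2.30 and 2.37 FPKM with galectin-1 and 2.02 and 1.64 FPKM with vehicle (log2 difference 0.24, adjusted p = 0.241), or 0.145 without vehicle replicate 2. Mxi1, which antagonises MYC, had 1.42 and 1.64 FPKM with galectin-1 and 1.22 and 1.23 FPKM with vehicle (0.18, adjusted p = 0.348). Groups of both genes were apart at these low levels. Ndrg1, a stress-responsive gene, had 71.0 and 71.1 FPKM with galectin-1 and 70.7 and 69.3 FPKM with vehicle (0.02, 95% interval -0.06 to 0.10). Kdm3a, a histone demethylase, had 3.45 and 3.61 FPKM with galectin-1 and 3.67 and 3.62 FPKM with vehicle (-0.03, 95% interval -0.23 to 0.16). Ddit4, an inhibitor of mTOR signalling, was not tested and had 0.425 and 0.447 FPKM with galectin-1 and 0.389 and 0.402 FPKM with vehicle. After quantile normalization the differences were -0.0087 for Ndrg1 and 0.011 for Kdm3a, so neither has a direction that holds.

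**Figure D3:**
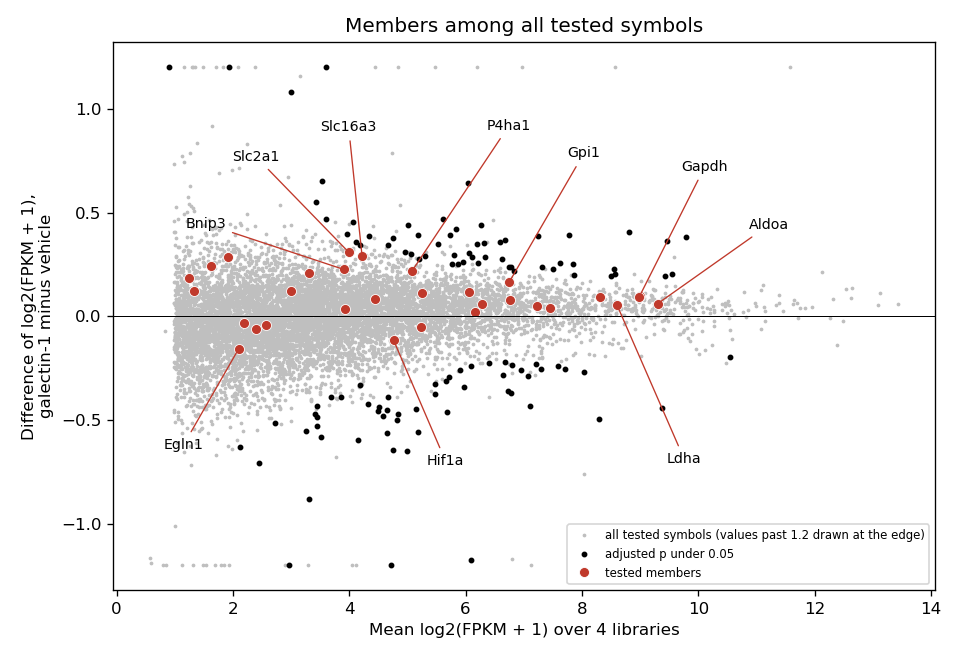
Mean log2(FPKM + 1) over the 4 libraries against the difference, galectin-1 minus vehicle, for all 9380 tested symbols, with the 112 called symbols in black and the 31 tested members in red. The members lie inside the cloud of uncalled symbols, mostly just above 0, and none is among the called symbols.

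Other genes of the pathway, listed by role with earlier results of these data known, were set beside the members. Of 107 such genes 80 were tested and 0 were called (limma); 15 were higher and 9 lower at an unadjusted p under 0.05, where all tested symbols gave 12.2% and 11%. Differences were positive for 46 and negative for 34, with a median of 0.03, and 50.7% of all tested symbols were positive.

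Among 16 further glycolysis genes the median was 0.02, with 10 positive and 6 negative. Slc2a6, a hexose transporter gene induced by LPS in macrophages, had 271 and 278 FPKM with galectin-1 and 307 and 319 FPKM with vehicle (log2 difference -0.19, standard error 0.03, adjusted p = 0.0614). It stood far above Slc2a1 in every library and had the opposite sign. Hk3, the hexokinase of myeloid cells, had 216 and 226 FPKM with galectin-1 and 190.2 and 202 FPKM with vehicle (0.17, adjusted p = 0.101) and stood above Hk1 and Hk2 in every library. Slc16a1, another monocarboxylate transporter, had 8.67 and 8.85 FPKM with galectin-1 and 7.19 and 7.30 FPKM with vehicle (0.24, adjusted p = 0.104). The groups did not overlap for any of these 3 genes.

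The pyruvate dehydrogenase list covers the complex that feeds pyruvate into the citric acid cycle, regulators of the complex and the pyruvate carrier. It had 8 negative differences among 11 tested, with a median of -0.10. At an unadjusted p under 0.05, 3 were lower, beside 11% of all tested symbols. Pdhb, a subunit of its first enzyme, had 21.8 and 22.9 FPKM with galectin-1 and 24.99 and 25.04 FPKM with vehicle (log2 difference -0.16, adjusted p = 0.132). Mpc1, part of the mitochondrial pyruvate carrier, had 57.1 and 56.2 FPKM with galectin-1 and 61.3 and 60.2 FPKM with vehicle (-0.10, adjusted p = 0.181). Dld, the dihydrolipoamide dehydrogenase of the complex, had 36.5 and 35.2 FPKM with galectin-1 and 38.4 and 38.8 FPKM with vehicle (-0.10, adjusted p = 0.211). Both galectin-1 libraries lay below both vehicle libraries for 8 of the 11 genes, beside 26.2% of all tested symbols. These 8 were not all subunits of the complex. They included Mpc1 and the regulator genes Pdk3, a kinase gene related to Pdk1, and Pdpr, with differences of -0.13 and -0.24 for Pdk3 and Pdpr. The phosphatase genes Pdp1 and Pdp2 had positive differences of 0.12 and 0.13, and the carrier gene Mpc2 had 0.02.

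Pentose phosphate genes showed no common direction, with 5 of 9 differences positive and a median of 0.01. Pgd, an NADPH-yielding dehydrogenase, had 104 and 115 FPKM with galectin-1 and 98.6 and 96.4 FPKM with vehicle (log2 difference 0.16, adjusted p = 0.151). Of 12 oxygen-sensing genes 6 were positive and 6 negative. Egln2, another prolyl hydroxylase gene, stood above Egln1 in every library and had the opposite sign. It had 26.8 and 27.1 FPKM with galectin-1 and 26.7 and 24.2 FPKM with vehicle (log2 difference 0.08, adjusted p = 0.443). Its groups did not overlap, but their nearest libraries were almost equal. The coactivator genes Ep300 and Crebbp, whose products bind hypoxia-inducible factors among many others, had differences of 0.18 and 0.20 (adjusted p = 0.0877 and 0.155). Cited2, which competes for that binding, had -0.11 (adjusted p = 0.172).

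Of 32 further hypoxia-induced genes tested, 22 differences were positive, with a median of 0.09, and 9 were higher and 3 lower at an unadjusted p under 0.05, beside the same 12.2% and 11%. Pgf, a relative of Vegfa, had 2.05 and 1.94 FPKM with galectin-1 and 0.845 and 1.04 FPKM with vehicle (log2 difference 0.63, standard error 0.11, adjusted p = 0.0596). Nampt, an enzyme of NAD synthesis, had 179 and 177 FPKM with galectin-1 and 163 and 159 FPKM with vehicle (0.14, adjusted p = 0.0848). The groups did not overlap for Pgf or Nampt, and neither gene passed.

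**Figure D4:**
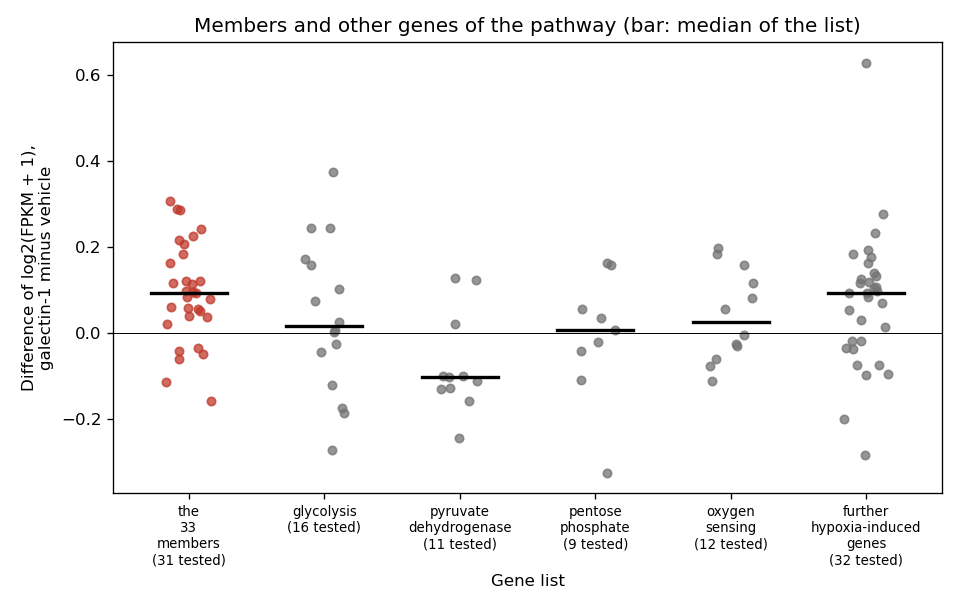
Difference of log2(FPKM + 1), galectin-1 minus vehicle, for each tested gene of the member set and of 5 other lists, with a bar at each list's median. The medians are 0.09 for the members and for the further hypoxia-induced genes, -0.10 for the pyruvate dehydrogenase list and within 0.03 of 0 for the other 3 lists.

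The libraries totalled 555507 to 557661 FPKM with galectin-1 and 541138 to 553191 FPKM with vehicle. Relative to vehicle replicate 1, depth read from the steps of low FPKM values was 1.02 in galectin-1 replicate 1, 0.879 in galectin-1 replicate 2 and 0.972 in vehicle replicate 2, and no absolute depth can be had. All 10 macrophage markers were present, from 5.25 to 6269 FPKM, with a summed level of 10542 to 10553 FPKM with galectin-1 and 9745 to 9760 FPKM with vehicle. Of these, 9 differences were positive, the same direction as most members, and 0 passed the test. Lyz2 made up most of the macrophage sum, with a mean of 6246 FPKM with galectin-1 and 5701 FPKM with vehicle. Mertk went the other way, with a mean of 16.9 FPKM with galectin-1 and 19.1 FPKM with vehicle. Its groups did not overlap (log2 difference -0.166, limma adjusted p = 0.167). The 8 fibroblast markers summed to 18.7 to 19.3 FPKM with galectin-1 and 15.5 to 15.6 FPKM with vehicle. Of 5 tested, 5 differences were positive and 0 were called. The largest gaps in mean were those of Bgn (7.18 FPKM with galectin-1 and 5.57 FPKM with vehicle) and Dcn (4.02 and 3.07 FPKM). Col3a1, not tested, had a slightly lower mean with galectin-1. The 7 dendritic cell markers summed to 17.2 to 17.8 FPKM with galectin-1 and 22.6 to 22.7 FPKM with vehicle. Of 3 tested, 1, the actin-bundling gene Fscn1, was called lower (log2 difference -0.47, limma adjusted p = 0.0425). Fscn1 and Ccl22 made up most of the sum. Ccr7 also had a lower mean with galectin-1. Flt3, Zbtb46, Xcr1 and Clec9a, all below 1 FPKM, had a higher mean. Zbtb46 was at 0.296 and 0.320 FPKM with galectin-1 and 0.249 and 0.0822 FPKM with vehicle, without overlap. The 6 neutrophil markers found summed to at most 2.92 FPKM in any library, with Elane and Ltf at 0 in all. The 3 B cell markers summed to at most 0.213 FPKM and the 4 T cell markers to at most 4.24 FPKM. Nearly all of the T cell sum was Cd4, with Cd3e at 0 in all libraries and Cd3d and Cd8a at 0.0735 FPKM or less. The erythroid gene Hba-a1 was at 0. The part of cell makeup or depth in the differences of the members was not tested, and in bulk RNA fewer cells of a type and less RNA per cell cannot be told apart.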

How the data were processed

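The authors deposited FPKM values, 1 per gene symbol and library, for 2 galectin-1 and 2 vehicle libraries. The kit selects mRNA and keeps strand, per the labels' protocols. Cufflinks 2.2.1, SAMtools 0.1.19, Bowtie2 2.2.3 and TopHat2 2.0.13 and the build mm10 stand in the submitters' processing notes, with no roles. The sources used here state no annotation, read filter, use of strand or treatment of multiply mapping reads. Without counts, no count model was fitted. Groups came from the sample titles.

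Deposited values were put on the log2(FPKM + 1) scale without rescaling, for symbols with a mean of at least 1 FPKM, and compared with limma 3.58.1 in R 4.3.3 (empirical Bayes with trend, 2 residual and 3.89 prior degrees of freedom, 2-sided Benjamini-Hochberg adjusted p under 0.05 over all 9380 symbols). The test was tried on simulated data first. Alternatives were pseudocounts of 0.1 and 5, no filter, a minimum of 5 FPKM, quantile and median scaling, no small RNA entries, no trend, a replicate block and each library left out. Members and lists were chosen with earlier results of these data known. Every member was accounted for. Of each other list, genes past the threshold and up to 3 of smallest p could be named. Further genes were named where the reading of a list depended on them. Relative depth was taken from 1366 genes below 0.3 FPKM in every library, as the most frequent ratio within 0.015 as a natural log. Promoters and coordinates come from RefSeq tables for GRCm38.p6, the assembly of mm10.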

Additional observations from a re-analysis of the deposited data

How the results depend on the processing

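The number of called members was 0 in every alternative except the fit without small RNA entries, where it was 1 (Gpi1), and the number of positive members stayed at 25 of 31 wherever the same members were tested. Their median difference was 0.09 as reported and 0.08 to 0.09 with a library left out. It was 0.070 with a pseudocount of 5 FPKM and 0.061 after quantile normalization. The median over all tested symbols was 0.0024 as reported, 0.0055 after quantile normalization and 0.020 at a minimum mean of 5 FPKM. The members' median thus lay above that of all tested symbols by 0.091 as reported, 0.056 after quantile normalization and 0.074 at a minimum mean of 5 FPKM. At an unadjusted p under 0.05 in limma, 10 members were higher and 0 lower as reported. After quantile normalization 6 were higher, after median scaling 9, and with the replicate block 11, each with 0 lower. Without the trend 7 were higher and 1 lower. The calls over all symbols, 112 as reported, were 3 without a filter, 226 at a minimum mean of 5 FPKM, 365 without small RNA entries, 2 in limma without the trend, and 12 to 16 with 1 library left out. Quantile normalization gave 71 calls, 24 higher and 47 lower in place of 57 and 55. With the replicate number as a block there were 240 calls and still 0 members; deviations of same-numbered libraries were nearly uncorrelated (r = 0.011 across 9380 genes, which are not independent), so the numbers are not taken to pair them.

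The sign turned for 6 members, each in 1 alternative. Within each such alternative turns to negative and to positive balanced, so the steady count of positive members does not mean that every sign held. After quantile normalization the difference was -0.0087 for Ndrg1 and 0.011 for Kdm3a. With a library left out it ran from -0.051 (without vehicle replicate 1) to 0.211 (without vehicle replicate 2) for Eno1, from -0.166 (without vehicle replicate 1) to 0.082 (without vehicle replicate 2) for Eno2, from -0.123 (without vehicle replicate 2) to 0.0023 (without vehicle replicate 1) for Pdk1 and from -0.060 (without vehicle replicate 2) to 0.134 (without vehicle replicate 1) for Ero1l. The cause was not tested. The other 25 tested members kept their sign in each of the 13 alternatives in which they were tested. Without a filter all 33 members were tested and 27 were positive; at a minimum mean of 5 FPKM 21 of 23 were. The absolute depth of the libraries is unknown, so no counting error can be given.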

Other observations

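Ratios of partner genes within a library do not depend on its scaling, and several of them separated the groups. The Hk2 to Hk1 ratio of FPKM was 1.09 and 1.07 with galectin-1 and 0.944 and 0.981 with vehicle. The Slc2a6 to Slc2a1 ratio was 16.98 and 15.9 with galectin-1 and 25.4 and 21.7 with vehicle. The Bnip3l to Bnip3 ratio was 1.44 and 1.40 with galectin-1 and 1.64 and 1.52 with vehicle. The Egln2 to Egln1 ratio was 8.72 and 8.95 with galectin-1 and 7.47 and 6.97 with vehicle. By contrast, Slc16a3 to Slc16a1 overlapped, at 2.27 and 2.205 with galectin-1 and 2.05 and 2.34 with vehicle, as did Pfkfb3 to Pfkfb4, at 38.0 and 47.5 with galectin-1 and 42.3 and 47.7 with vehicle. Of 13 such ratios computed, 5 were higher and 3 lower with galectin-1 without overlap, and 5 overlapped. For comparison, 55.4% of all tested symbols taken singly had groups without overlap, and no such share was computed for other ratios. The pairs were chosen after the values were seen, and no test was made.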
